A study of Mus musculus with 6 samples.

Results

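The 9 genes described here are the aryl hydrocarbon receptor gene Ahr, its partner Arnt, the repressor genes Ahrr and Tiparp, and the target genes Cyp1a1, Cyp1a2, Cyp1b1, Nqo1 and Aldh3a1. They were chosen by name around Cyp1a1, whose fold and adjusted p-value in the same comparison were already known, so their values are given as a description and support nothing further. All 9 are among the 20138 genes of the authors' deposited table. The kidneys came from mice at postnatal day 35, 3 of the genotype Pkhd1Cre; Pkd2 F/F (Pkd2-KO) and 3 of the genotype Pkhd1Cre; Pkd2 F/F; miR-214null (Pkd2-miR-214 KO). Both genotypes therefore share the Cre transgene and floxed Pkd2, the gene for polycystin-2, a channel whose loss makes kidneys cystic. Pkhd1-driven Cre acts mainly in collecting duct and other tubule cells, whereas the labels tie the miR-214 null allele to no cell type and do not give the sex of the animals. Whole kidneys were extracted, so fewer cells of a type and less RNA per cell cannot be told apart in any value given here. The table holds 1 fold and 1 mean level per gene; values per animal were not analysed here.

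The aryl hydrocarbon receptor (AHR) is a transcription factor of the bHLH-PAS family that waits in the cytosol with the chaperones HSP90 and p23. After binding a ligand, such as a dioxin, a polycyclic aromatic hydrocarbon or a product of tryptophan, it enters the nucleus, pairs with ARNT and binds DNA at a short core element that reads GCGTG. Cyp1a1 is its most sensitive and best known target, and the CYP1 enzymes oxidise many AHR ligands and so help to clear them, while AHRR and TIPARP hold the receptor back. In kidney, Cyp1a1 is known to be inducible by such ligands, whereas Cyp1a2 is best known as a liver enzyme.

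Cyp1a1 was the 1 member that passed the threshold, an adjusted p under 0.05 over all genes, and it fell in Pkd2-miR-214 KO. The authors' deposited table gave it a log2 fold of -3.94 ± 0.56 (SE, n = 3 animals per genotype; adjusted p = 1.34e-08, edgeR), which is 15.3-fold lower, with an approximate 95% interval of 7.17 to 32.8-fold. Each SE given here is approximate, worked out from the fold and its likelihood ratio, and levels are in CPM, read counts scaled to library size. The receptor, its partner, both repressors and the other target genes did not pass. Of the 9 members 1 was called lower and 0 higher, where 0.0199% of all genes were called lower and 0.104% higher. Without adjustment 1 member had a p under 0.05 on the lower side and 1, Cyp1a2, on the higher side, beside 1.71% and 3.1% of all genes. Because the genes were gathered around Cyp1a1, nothing is read from these shares. The signs of the folds were split, 4 positive and 5 negative, and the median log2 fold was -0.01 beside 0.00 over all genes.

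**Figure D1:**
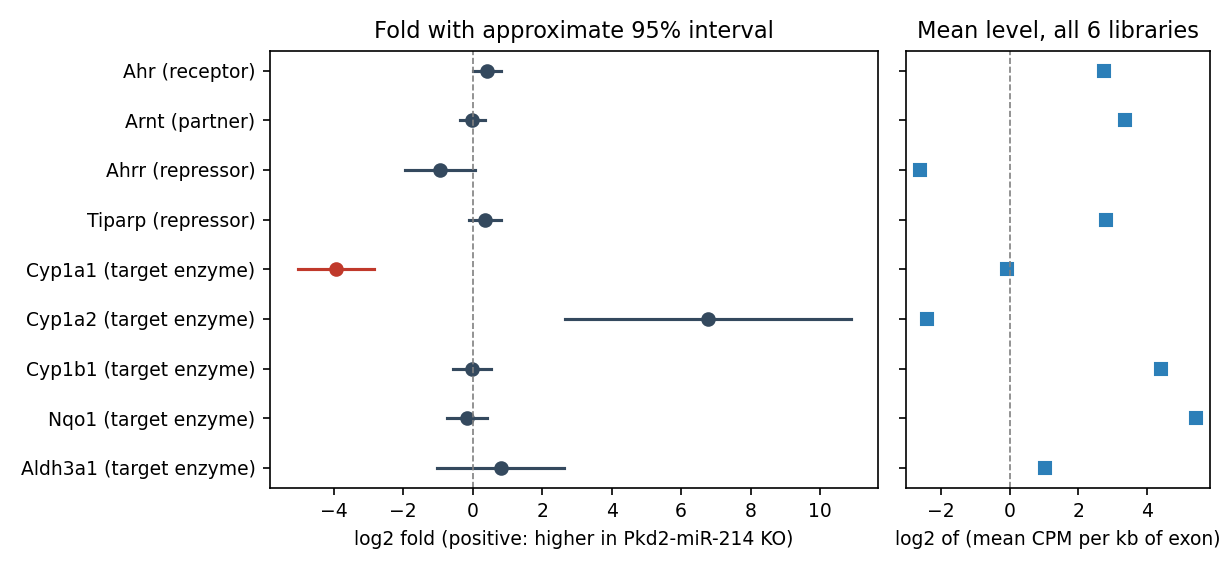
Left, log2 fold of each of the 9 genes with its approximate 95% interval (red: adjusted p under 0.05). Right, the mean level over all 6 libraries as log2 of the CPM per kilobase of exon. Cyp1a1 lies at -3.94 and Cyp1a2 at 6.76, and the intervals of the other 7 genes include 0.

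The allele that separates the genotypes removes miR-214, a microRNA that pairs through its seed with sites in messenger RNAs. Both mature arms are shown because the seeds are searched for further on, each written 5' to 3' with the seed, bases 2 to 8, in capitals. They are taken from RefSeq (GRCm38.p6), which places the hairpin at chr1:162223368-162223477 (plus strand).
miR-214-3p: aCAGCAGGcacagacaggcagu
miR-214-5p: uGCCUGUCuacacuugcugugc
For the Mir214 locus the authors' deposited table listed a log2 fold of -7.62 ± 1.08. That negative sign was used to read the direction of all folds, so a positive fold means more RNA where miR-214 was deleted, and Mir214 is no independent check of the labels. Pkd2, floxed in both genotypes, stood at -0.11 ± 0.23 in the authors' deposited table.

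The receptor gene Ahr (chromosome 12, 35497974 to 35535038, minus strand) encodes the ligand-binding member of the pair. The authors' deposited table listed it at 0.41 ± 0.21 in log2 fold, with an interval of -0.01 to 0.82 (unadjusted p = 0.0530, adjusted p = 1). Arnt (chromosome 3, 95434388 to 95497240, plus strand), the partner that AHR needs to bind DNA and that also serves the hypoxia factors, had -0.01 ± 0.19 there, an interval of -0.38 to 0.36. The value of the receptor thus leaned upward without passing, and its interval includes the median of all genes.

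Ahrr (chromosome 13, 74211118 to 74292331, minus strand) encodes a repressor that competes with AHR for ARNT and is itself induced by AHR. Its log2 fold was -0.95 ± 0.52 (unadjusted p = 0.0662, adjusted p = 1), with an interval of -1.96 to 0.06 in the authors' deposited table. Tiparp (chromosome 3, 65528410 to 65555518, plus strand) encodes an ADP-ribosyltransferase that is induced by AHR and marks the receptor for loss. It had 0.34 ± 0.23, with an interval of -0.12 to 0.80, in the authors' deposited table. The values of the 2 repressors thus had opposite signs and neither passed.

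Cyp1a1 and Cyp1a2 are neighbours on chromosome 9, read away from each other, and their folds had opposite signs. Cyp1a1 spans 57687928 to 57703824 on the plus strand and Cyp1a2 spans 57676937 to 57683703 on the minus strand. Their start sites lie 13.9 kb apart when counted from the start that RefSeq uses for its promoter, and 4.22 kb apart from the most upstream annotated start of Cyp1a1. Cyp1a2, which metabolises caffeine and aromatic amines, stood at 6.76 ± 2.10 in log2 fold (unadjusted p = 0.00127, adjusted p = 0.232) by the authors' deposited table. Its interval of 2.65 to 10.88 is wide, the mean level was 0.375 CPM, and a fold fitted at such a level depends on the prior count. It passed under 1 alternative, a rescaled likelihood ratio (adjusted p = 0.0445). That rescaling raises the likelihood ratios of all genes, so it makes passing easier. Cyp1a1 had a mean level of 2.66 CPM, and 0 of the 14520 genes with at least 1 CPM had a lower fold than Cyp1a1, while 4 of all 20138 genes did.

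The promoters are shown for Cyp1a1, the gene that fell, for Cyp1a2, its neighbour with the opposite sign, and for Ahrr, the member with the most copies of the AHR core. Each runs 5' to 3' on the strand of its gene from 250 bases before to 50 bases after the start (RefSeq, GRCm38.p6), with the core GCGTG in capitals, searched on both strands.
Cyp1a1, chr9:57697363-57697662, plus strand: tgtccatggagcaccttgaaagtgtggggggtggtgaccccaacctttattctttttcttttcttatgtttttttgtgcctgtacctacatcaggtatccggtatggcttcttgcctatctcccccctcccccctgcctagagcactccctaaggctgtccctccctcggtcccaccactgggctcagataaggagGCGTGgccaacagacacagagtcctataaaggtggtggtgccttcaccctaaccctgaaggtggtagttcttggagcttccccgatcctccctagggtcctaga
Cyp1a2, chr9:57683606-57683905, minus strand: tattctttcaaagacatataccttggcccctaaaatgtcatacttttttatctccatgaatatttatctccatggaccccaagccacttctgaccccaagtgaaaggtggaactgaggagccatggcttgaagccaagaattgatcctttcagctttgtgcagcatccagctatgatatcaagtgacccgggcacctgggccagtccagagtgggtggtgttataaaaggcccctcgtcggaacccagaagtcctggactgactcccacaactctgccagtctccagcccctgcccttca
Ahrr, chr13:74292282-74292581, minus strand: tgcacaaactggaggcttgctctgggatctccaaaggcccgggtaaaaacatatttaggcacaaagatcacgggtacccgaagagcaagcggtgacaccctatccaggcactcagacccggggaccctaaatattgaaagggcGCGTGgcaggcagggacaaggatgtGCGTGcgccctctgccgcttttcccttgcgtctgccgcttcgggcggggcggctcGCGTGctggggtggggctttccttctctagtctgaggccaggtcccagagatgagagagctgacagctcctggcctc
The Cyp1a1 window held 1 copy, 54 bases before the start, the Cyp1a2 window 0, and the Ahrr window 3, at 107, 82 and 27 bases before the start. Of the 7 members with a promoter in the table used, 5 held the core (Cyp1a1, Ahrr, Arnt, Cyp1b1 and Tiparp), beside 32.4% of all 32851 promoters of this length. Counted by gene, the share is higher. Of the 14279 measured genes with a promoter there, 6875 held the core in at least 1 promoter. Cyp1a2 and Nqo1 held none. The longer form TNGCGTG, which contains the core, was found in 1 of the 7, Ahrr, beside 5.07% of all promoters. A match in these letters is not a binding site, and elements outside this window were not searched. Among genes of at least 1 CPM, those with the core in a promoter had a median log2 fold of 0.00 (5842 genes) and those without it -0.01 (4997 genes).

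Reads of the 2 Cyp1a genes can be confused where their sequences coincide. Their coding sequences were identical at 76.9% of 1535 aligned bases, with a longest identical run of 137 bases between the transcripts. Cyp1a1 and Cyp1b1 were identical at 55.6%, with a longest run of 13 bases. How reads that fit both genes were counted is not given in the sources used here, and its part in either fold was not tested.

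Cyp1b1 (chromosome 17, 79701537 to 79715061, minus strand), the CYP1 enzyme of mesenchymal and steroid-forming cells, had a mean level of 123.5 CPM. The authors' deposited table listed it at -0.02 ± 0.28 in log2 fold, with an interval of -0.57 to 0.52. The interval of Cyp1b1 does not reach that of Cyp1a1, -5.04 to -2.84, but the difference between these genes was not tested.

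Nqo1 and Aldh3a1 are targets shared with other pathways. Nqo1 (chromosome 8, 107388225 to 107403206, minus strand) encodes a quinone reductase and is driven by both AHR and the transcription factor NRF2. It stood at -0.18 ± 0.29 in log2 fold by the authors' deposited table, with an interval of -0.75 to 0.40. Aldh3a1 (chromosome 11, 61207537 to 61218421, plus strand), an aldehyde dehydrogenase abundant in cornea and stomach, had 0.80 ± 0.93 there, with an interval of -1.03 to 2.63. Its SE lay at the 98.9 percentile of the genes within 0.5 log2 CPM of its mean level, so the authors' fit gave this gene an unusually large error.

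**Figure D2:**
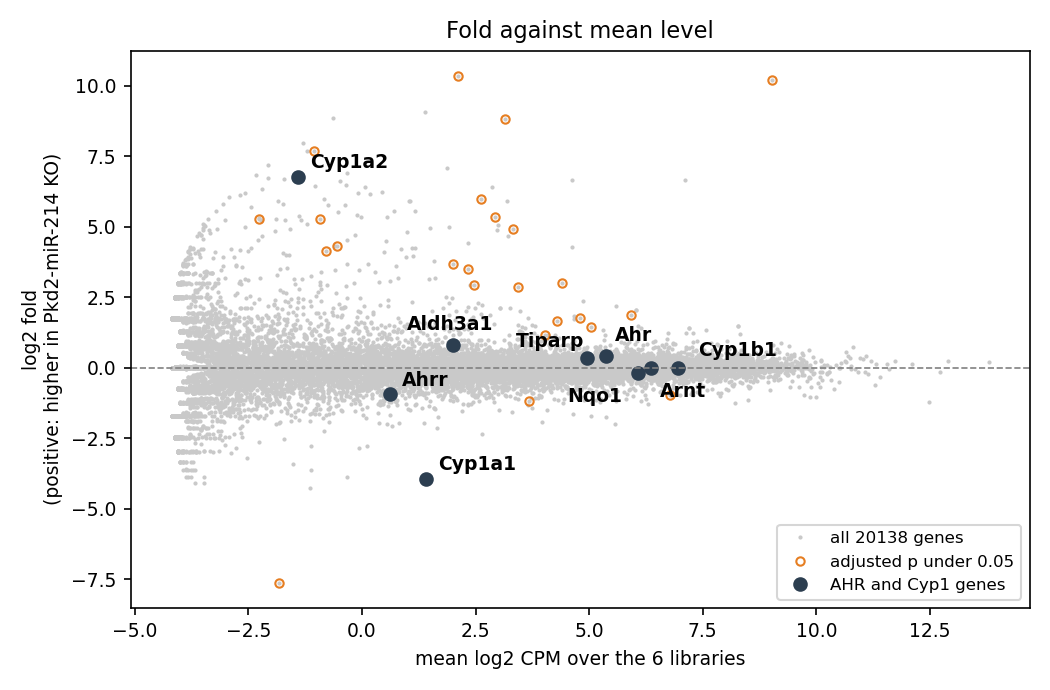
Log2 fold against mean log2 CPM for all 20138 genes (grey), those with an adjusted p under 0.05 (orange rings) and the 9 members (dark, named). Cyp1a1 lies below the cloud of genes at its mean level of 1.41, Cyp1a2 lies high at -1.41, and the members of high mean level lie near 0.

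Levels can be compared between genes only per length. Per kilobase of annotated exon, Nqo1 had the highest mean level at 43.3 CPM, followed by Cyp1b1 at 21.1 and Arnt at 10.3. Tiparp (7.07) and Ahr (6.75) came next, close to each other on the same scale. Aldh3a1 had 2.06 CPM per kilobase and Cyp1a1 0.954. Cyp1a2 (0.186) and Ahrr (0.162) were lowest. These are means over both genotypes, so the spread over animals is unknown and the order of neighbours such as Tiparp and Ahr, or Cyp1a2 and Ahrr, was not tested. The folds of Cyp1a1 and Cyp1a2 are large and opposite, so the place of either gene in this order need not hold within 1 genotype. Without correction for length, the pooled mean of Cyp1a1 lay at the 34.2 percentile of the mean log2 CPM of all genes.

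No gene near Cyp1a1 passed the threshold. Of 16 genes annotated within 200 kb of its start, 14 were in the table, and 13 of these are neighbours. None of the 13 passed (0 called; 1 with an unadjusted p under 0.05, Cyp1a2), 8 had negative folds and 5 positive ones. Beyond Cyp1a2 lies Csk, a kinase that restrains Src, and on the other side Edc3, an mRNA decapping factor; the authors' deposited table listed them at -0.19 ± 0.24 and -0.12 ± 0.21 in log2 fold. Farther out, Ulk3 (0.09), Clk3 (0.07), Scamp2 (-0.14), Mpi (-0.27), Fam219b (0.16), Arid3b (-0.15) and the respiratory chain gene Cox5a (-0.20) had log2 folds near 0 in the authors' deposited table. The 9 neighbours of at least 1 CPM therefore lay between -0.27 and 0.16. The other neighbours, all of low level, were Cyp1a2, Rpp25 (-0.08), Cplx3 (-0.33) and Lman1l (1.32 ± 0.89) in the authors' deposited table.

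**Figure D3:**
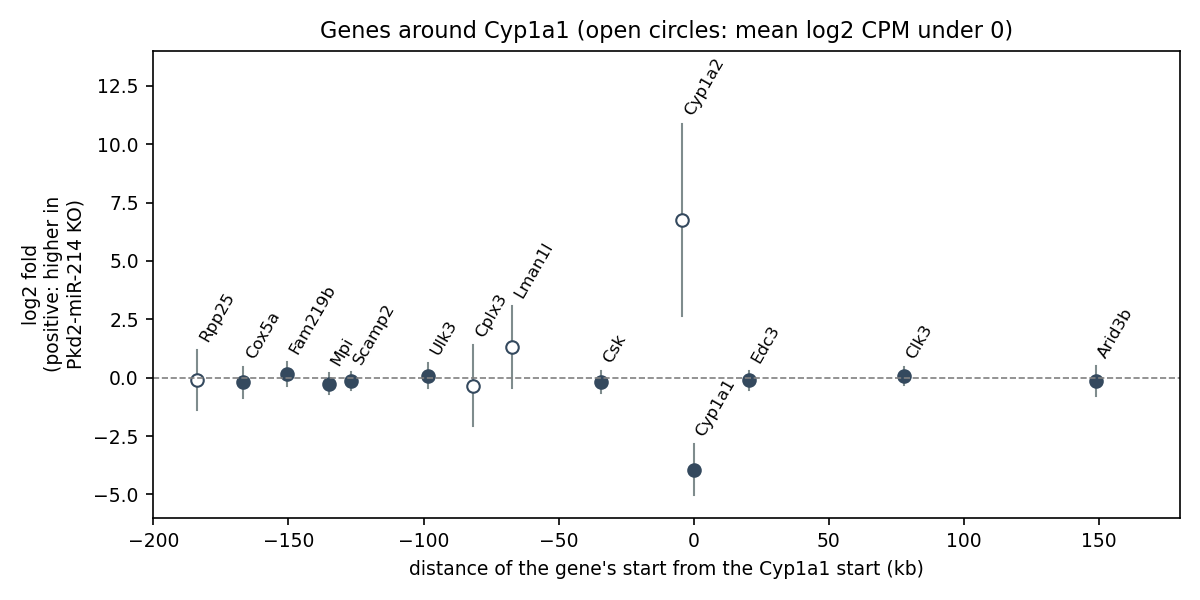
Log2 fold with its approximate 95% interval for genes within 200 kb of the Cyp1a1 start, by distance in kilobases (open circles: mean log2 CPM under 0). Cyp1a1 at -3.94 and Cyp1a2 at 6.76 stand apart from the 9 neighbours of at least 1 CPM, which lie between -0.27 and 0.16.

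The genes whose statistic was most like that of Cyp1a1, by signed square root of the likelihood ratio in this 1 comparison, were Mir214, Prune2 and Pisd-ps1. Cyp1a1 had -7.04 on this measure, the deleted Mir214 -7.03, Prune2 -4.32 and the pseudogene Pisd-ps1 -4.05. With Cyp1a1 they make up the 4 genes called lower, so the list repeats those calls. Prune2 and Pisd-ps1 lay 2.72 and 2.99 away from Cyp1a1 on this measure. In log2 fold, Prune2 had -1.19 ± 0.28 (adjusted p = 0.0168, edgeR) and Pisd-ps1 -0.97 ± 0.24 (adjusted p = 0.0430, edgeR) in the authors' deposited table.

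Liver markers were measured beside Cyp1a2, an enzyme typical of hepatocytes. All 10 liver markers had positive log2 folds, from 0.53 to 6.64 with a median of 2.53, 8 had an unadjusted p under 0.05 and 0 passed. Of all genes 3.1% had an unadjusted p under 0.05 on the higher side. Albumin (Alb) had 6.64 ± 2.05 in the authors' deposited table, where its mean log2 CPM was 7.11, and the fibrinogen genes Fga and Fgg had 0.95 ± 0.36 and 0.93 ± 0.45. Tdo2, the tryptophan dioxygenase of liver that makes kynurenine, an AHR ligand source, had 6.15 ± 1.90 (adjusted p = 0.226) by the authors' deposited table. The SE of Cyp1a2, 2.10, lay at the 99.6 percentile of genes within 0.5 log2 CPM of its mean level, whose median SE was 0.64. Cyp1a2, Alb and Tdo2 thus had large positive folds with large errors, and the part of liver RNA in the value of Cyp1a2 was not tested. Cyp1a1, which liver also makes when induced, lay on the opposite side with an SE of 0.56. That SE was at the 85.1 percentile of genes of similar level, whose median was 0.44.

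**Figure D4:**
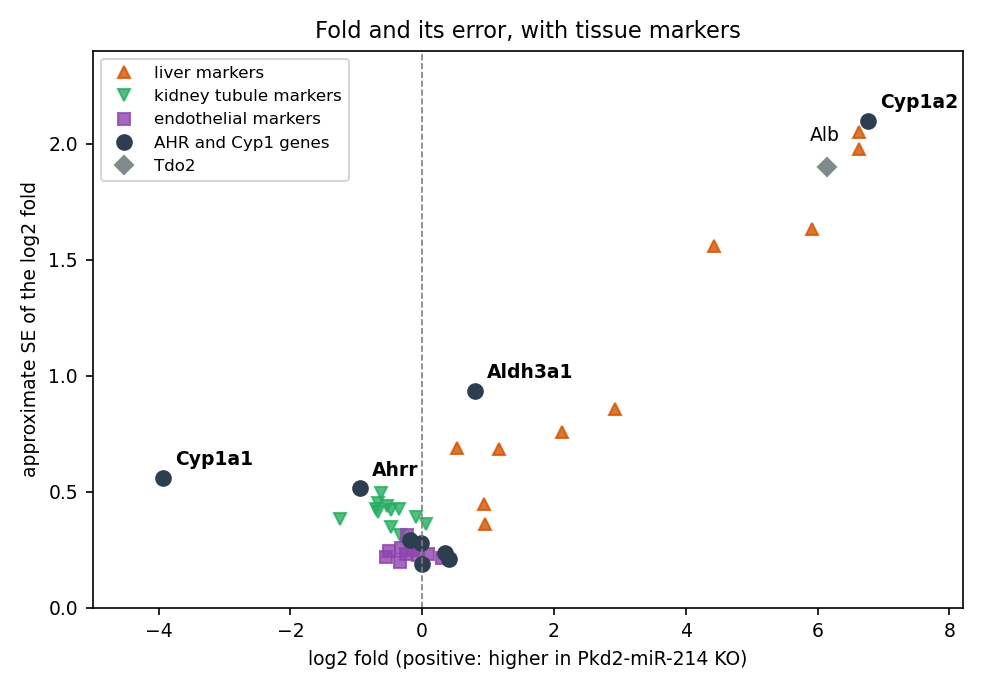
Approximate SE of the log2 fold against the log2 fold itself for the 9 members, Tdo2 and the liver, kidney tubule and endothelial markers. Cyp1a2 (6.76, SE 2.10) lies beside Alb (6.64, SE 2.05) and Tdo2 (6.15, SE 1.90), and Cyp1a1 lies alone at -3.94 with an SE of 0.56.

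Markers of cell types that can make CYP1 enzymes were read in the same way. Kidney tubule markers were present at high level, with mean log2 CPM from 7.81 to 11.4. Of these 12 genes 11 had negative folds, with a median of -0.50 and 0 called; Umod had -0.35 ± 0.43, Slc34a1 -0.62 ± 0.49 and Slc12a1 -0.70 ± 0.43 in the authors' deposited table. Endothelial markers, from a cell type in which AHR ligands induce Cyp1a1, had 8 of 10 negative folds, a median of -0.23 and a range of -0.54 to 0.29, with 0 called. Among them Plvap had -0.51 ± 0.25, Eng -0.32 ± 0.26 and Pecam1 0.09 ± 0.23 in the authors' deposited table. The lowest fold in either list was -1.24 ± 0.38 (adjusted p = 0.223, edgeR), that of the tubule gene Slc22a12, named after its value was seen. On the lower side 1 tubule and 2 endothelial markers had an unadjusted p under 0.05, beside 1.71% of all genes. On the higher side 0 of either list did. The part of these cell types in the value of Cyp1a1 was not tested.

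Fibroblast and pericyte markers, from cells that carry Cyp1b1, had 7 of 10 negative folds, a median of -0.22, a range of -0.46 to 1.21 and 0 called. The most abundant of them, the collagen genes Col3a1 (-0.35 ± 0.34), Col1a2 (-0.29 ± 0.30) and Col1a1 (-0.46 ± 0.33), had negative values in the authors' deposited table. The proteoglycan genes Dcn (1.18 ± 0.31, unadjusted p = 0.000152, adjusted p = 0.102) and Lum (1.21 ± 0.47, unadjusted p = 0.00955, adjusted p = 0.583), named after their values were seen, were the 2 with an unadjusted p under 0.05 and had the opposite sign in the authors' deposited table. Urothelial and stratified epithelial markers had 5 of 7 negative folds, a median of -0.15 and 0 called, with 0.19 ± 0.64 for Upk1b, -0.55 ± 0.68 for Upk1a and -0.15 ± 0.95 for Upk3a in the authors' deposited table. Adrenal markers had 9 of 9 positive folds, from 0.78 to 6.83 with a median of 2.37. Of these 3 had an unadjusted p under 0.05, beside 3.1% of all genes on the higher side. The 1 called higher, beside 0.104% of all genes, was Dbh, with 5.27 ± 1.31 (adjusted p = 0.0475) in the authors' deposited table. Star (0.79 ± 0.60), Cyp21a1 (2.10 ± 1.16) and Cyp11a1 (1.98 ± 1.10) did not pass in the authors' deposited table.

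Sex-linked genes were read because the labels give no sex. Xist, the RNA of the inactive X chromosome, was called higher, at 10.21 ± 2.36 in log2 fold (adjusted p = 0.0168) by the authors' deposited table. The Y-linked genes Ddx3y (-0.23 ± 1.54), Eif2s3y (-0.14 ± 1.63), Kdm5d (-0.66 ± 1.40) and Uty (-0.39 ± 1.66) had large errors and did not pass in the authors' deposited table. Their SEs stood beside medians of 0.21 to 0.26 among genes of similar level. Mean log2 CPM was 9.02 for Xist and 4.16 to 5.83 for the Y-linked genes, so the 6 libraries appear to hold both sexes. At this mean level the Xist fold leaves little Xist in Pkd2-KO, so animals with Xist appear to lie in Pkd2-miR-214 KO. The Y-linked folds lay near 0, so Y-linked RNA appears to be in both genotypes. The exact number of each sex per genotype is unknown, and sex and genotype cannot be told apart here. The part of sex in the value of Cyp1a1 was not tested.

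The proteins that hold AHR ready or act with it showed small values. None of the 13 chaperone and cofactor genes passed, 7 folds were positive and 6 negative, and the range was -0.24 to 0.33 with a median of 0.01. Among those with the smallest p-values were Cul4b (0.33 ± 0.23), whose ubiquitin ligase AHR joins, the p23 gene Ptges3 (0.23 ± 0.21) and the acetyltransferase gene Crebbp (-0.24 ± 0.32) in the authors' deposited table. Other bHLH-PAS factors, relatives of AHR and ARNT, had 8 positive and 8 negative folds, a median of 0.01 and 0 called. Their smallest p-values belonged to the clock gene Arntl (1.25 ± 0.52, adjusted p = 0.737), Arnt2 (-0.35 ± 0.20), Npas2 (1.19 ± 0.67) and Npas1 (2.49 ± 1.55, where the mean log2 CPM was -4.12) in the authors' deposited table.

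None of the further genes reported as AHR targets passed. Of 15 listed genes 14 were in the table, 11 folds were positive and 3 negative, the median was 0.26 and 0 passed. On the higher side 3 had an unadjusted p under 0.05, beside 3.1% of all genes. On the lower side 0 did, beside 1.71% of all genes. Gsta1, a glutathione transferase with near-identical copies that may share reads, had 2.12 ± 0.74 (adjusted p = 0.398) and the xanthine oxidase gene Xdh 0.60 ± 0.26 (adjusted p = 0.770) in the authors' deposited table. Cyp2s1, a P450 of epithelia, had 0.72 ± 0.34 (adjusted p = 0.926) and Ido2 0.98 ± 0.57 (adjusted p = 1) there. The lowest log2 fold in this list was -0.12.

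Genes of tryptophan breakdown, a source of AHR ligands, had 7 positive and 8 negative folds, a median of 0.00 and 0 called. Beside Tdo2 and Ido2, the smallest p-values were those of Qprt (-0.68 ± 0.37), which leads toward NAD, and Tph1 (0.89 ± 0.62), the serotonin pathway enzyme, in the authors' deposited table. Genes that supply electrons and heme to P450 enzymes had 5 of 6 positive folds, a median of 0.09 and 0 called. Alas1, the rate-limiting enzyme of heme synthesis, had -0.57 ± 0.28 (adjusted p = 0.976), Pgrmc1 0.23 ± 0.23, Cyb5 0.13 ± 0.26 and Cyb5r3 0.12 ± 0.26 in the authors' deposited table.

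The NRF2 list, whose factor also drives Nqo1, had 12 of 13 positive folds, a median of 0.22, 1 gene called higher and 0 lower. The called gene was Hmox1, which degrades heme, with 1.87 ± 0.39 (adjusted p = 0.00255) in the authors' deposited table. Gsta3 (0.55 ± 0.25), the cystine transporter gene Slc7a11 (0.85 ± 0.47) and Gsr (0.33 ± 0.22) did not pass there. Over all genes 49.8% of folds were positive and 48.2% negative, 0.104% were called higher and 0.0199% lower. None of the counts of these lists was tested against that background.

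**Figure D5:**
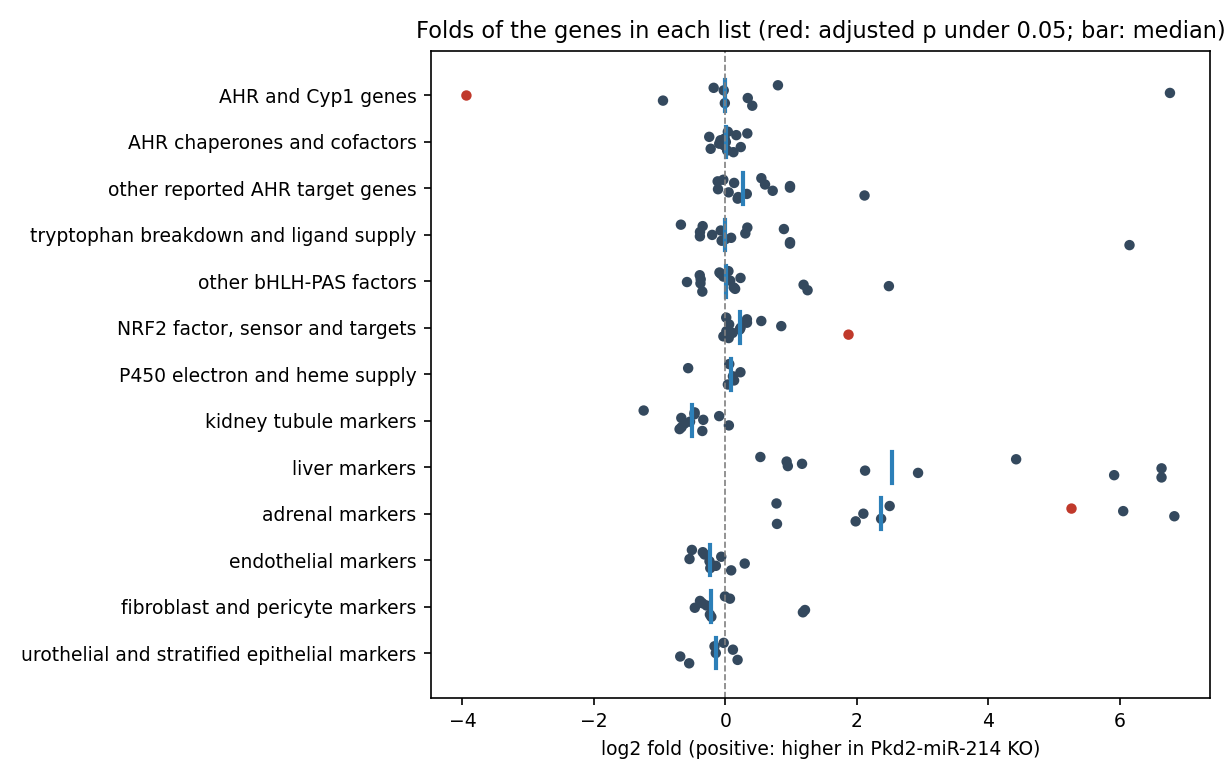
Log2 folds of single genes in the 9 members and in each pathway or tissue list (points; red: adjusted p under 0.05), with the list's median as a bar. Liver and adrenal markers have medians of 2.53 and 2.37, and no gene of any other list lies as low as Cyp1a1 at -3.94.

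The 7-base match to the miR-214-3p seed, CCTGCTG, was searched in the 3' UTRs of the members, where the microRNA could pair. Of the 9 members 3 held it, beside 21.3% of 16900 genes with a 3' UTR: Ahrr with 2 copies, Cyp1a1 and Aldh3a1 with 1 each. The sites are shown with their flanks, the match in capitals (GENCODE M21 transcripts, 5' to 3').
Cyp1a1, bases 380 to 386 of its 3' UTR: gctcttgccaCCTGCTGaggctaaaca
Ahrr, bases 799 to 805: caggtaaaagCCTGCTGcgctctgcct
Ahrr, bases 1950 to 1956: catctgcaccCCTGCTGggatgactta
Aldh3a1, bases 87 to 93: ttctctcccaCCTGCTGccccatgcat
Positions are counted from 1 at the base after the stop codon, and the longest annotated UTR was 945 bases for Cyp1a1, 2539 for Ahrr and 193 for Aldh3a1. Ahr, Arnt, Cyp1a2, Cyp1b1, Tiparp and Nqo1 held 0 copies. For miR-214-5p the match GACAGGC was found in 1 member, Arnt, beside 9.4% of the genes. The log2 folds of the 3 members with a miR-214-3p match, -3.94, -0.95 and 0.80 in the authors' deposited table, had no common sign. Over the 3124 genes of at least 1 CPM that held it the median was -0.02. Such a match is a description and shows no pairing.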

How the data were processed

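Kidney RNA of 6 mice was sequenced, 3 per genotype, and 1 table of 20138 genes was used. Per the submitters' processing notes, TopHat2 2.0.12, edgeR and mm10 were used, with no settings given. Per the file headers the authors deposited a log2 fold change, a mean level as log2 CPM, a likelihood ratio (a score of the genotype term, 1 degree of freedom) with its p-value before and after adjustment. The counting of reads, its use of strand, normalization factors and any filter were not stated in the labels or headers. The table lists 414 genes with a fold of exactly 0. Values per library were not analysed here, so depth is unknown and no SD per group is given. The planned fallback was used, a description of the authors' statistics with no new test.

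The members and gene lists were chosen with earlier results of these data known. The approximate standard error (SE) was taken as the absolute log2 fold over the root of its likelihood ratio, and the 95% interval is 1.96 SE either side. This is rough for genes of low count. Calls are adjusted p-values under 0.05 over all genes, by Benjamini-Hochberg, as the authors deposited them. Those p-values come from 3 animals per genotype and rest on edgeR's estimate of the spread, whose settings were not given.

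Positions and transcripts come from GENCODE M21 on GRCm38, the assembly of mm10. Promoters and miRNAs come from RefSeq on GRCm38.p6. Seed sites were counted in the longest annotated 3' UTR of 16900 genes of the table.

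The text names the 9 members, up to 4 genes of smallest p per pathway list, the 3 of highest mean level per tissue list, every called list gene, the sex-linked genes, the Cyp1a1 locus within 200 kb, the 3 genes nearest to Cyp1a1 in signed root likelihood ratio, and the targeted loci. 1 gene that this rule names is not reported here. Alternatives changed the adjustment, the genes adjusted, the threshold, the centring of folds, the locus window and the motif. The SE and adjustment code was checked on simulated data. The scripts ran on Biopython 1.88, matplotlib 3.10.9, scipy 1.17.1, pandas 2.3.3 and numpy 2.4.6 under Python 3.11.15.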

Additional observations from a re-analysis of the deposited data

How the results depend on the processing

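The call for Cyp1a1 held under all 7 alternatives of adjustment, gene filter and threshold, with an adjusted p between 7.86e-12 and 1.41e-07, and its log2 fold was -3.94 under either centring. The count of members called higher went from 0 to 1 when the likelihood ratio was rescaled so that its median over all genes matched the chi-square median (it was 0.772 times that value): Cyp1a2 then had an adjusted p of 0.0445, against 0.211 to 1 under the other adjustments that kept it. Of 26 recomputed list medians 25 moved by less than the list's median approximate SE, but most of them could not move. Centring on the median of all genes, 0.00, leaves every fold and median as it was. The filter of at least 1 CPM removed genes only from the other AHR target, tryptophan, bHLH-PAS and adrenal lists. The adrenal median was 0.79 for its 1 gene of at least 1 CPM. Within 100 kb of Cyp1a1, 3 of 7 neighbours had negative folds, and within 500 kb 10 of 22. The 7-base AHR motif was found in 1 member promoter. The 6-base miR-214-3p match was found in 7 of the 9 members, beside 48.9% of the 16900 genes with a 3' UTR. These counts change because the letters searched are more or less common. Leaving out each replicate, DESeq2 and another normalization were not run because they need values per library.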
